A study of Caenorhabditis elegans with 6 samples.

Results

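The miR-51 family of the nematode Caenorhabditis elegans comprises the related microRNAs cel-miR-51-5p, cel-miR-52-5p, cel-miR-53-5p, cel-miR-54-3p, cel-miR-55-3p and cel-miR-56-3p (written without the species prefix below), which are relatives of the miR-100 family of other animals. Members were chosen by name, without regard to their values, and all 6 had a probe among the 154 worm microRNA probes of the array. The second strand of the miR-56 hairpin, miR-56-5p, also had a probe and was not counted as a member. Total RNA of 2 strains, each kept under 3 exposures, was labelled with a single dye and hybridised to 6 arrays, so that every combination of strain and exposure had 1 array and no replicate. The strains were N2, the wild type, and a mutant labelled ced-1, whose strain name is LS292 in the titles and MT4930 in the strain field. The product of ced-1 is a cell-surface receptor by which neighbours recognise and engulf cell corpses. About 100000 dauer larvae, an arrested and stress-resistant stage, were loaded per container and kept for 16.5 days at 23 °C, and every group was frozen 7 h after the end of its run. The static flight group was kept in orbit without a centrifuge (peaks of at most 0.01 g, radiation dose 1.92 mGy). The centrifuge flight group was spun at 1 g in orbit (2.27 mGy). The ground group was kept in a static slot on Earth in a run that began 2 days later. The flight groups therefore shared launch, landing and radiation, and the ground group shared neither.

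MicroRNAs are short RNAs that guide Argonaute proteins to messenger RNAs, mostly through the bases of their seed, and lower the output of those messages. Members of the miR-51 family share a seed and act redundantly: worms that lack all of them die as embryos or young larvae, and attachment of the pharynx is one of the processes that needs them. The family is broadly expressed, and its loss is also known to alter the phenotypes of worms mutant for other microRNAs. In the RefSeq gene table (WBcel235), mir-51 and mir-53 are neighbours on chromosome IV, and mir-52 lies elsewhere on IV with 0 other microRNA genes within 10 kb. The genes mir-54, mir-55 and mir-56 lie together on X, within the span of the protein-coding gene F09A5.3 and close to a further microRNA gene, F09A5.15.

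The arrays of the 2 strains differed in ways that touch every value below. Each worm probe had 4 spots per array, and its value is the median of their intensities after subtraction of the local background, in arbitrary units. Control probes for added synthetic RNAs gave a non-specific level: the 95th percentile of their 476 spots, used here as the control limit, was 97 in static flight, 75.2 in centrifuge flight and 150 on the ground for the mutant, and 14, 20 and 13.2 in that order for N2. The share of all spots below 0 was 1.7% to 2.5% on the mutant arrays and 22% to 58.2% on the N2 arrays, where the local background often exceeded the spot. Each strain has its own raw table, and the effect of the strain and that of the table cannot be told apart. miR-71, a microRNA prominent in dauer and long-lived worms, read 3388, 10498 and 861 on the mutant arrays but 1, -8.5 and -5 on the N2 arrays, and the muscle microRNA miR-1 read 187, 474 and 140 against 6, -49 and -9.5. Both lay under the control limit on all 3 N2 arrays, and miR-1 was also under it on the mutant ground array (140 against 150). Of the 2 neuron microRNAs, 2, 2 and 0 exceeded that limit in the mutant and 1, 1 and 2 in N2. Of the 2 larval timing microRNAs, 2, 2 and 1 did in the mutant and 1 on each N2 array. Of the 8 embryo and germline microRNAs, 2, 6 and 3 did in the mutant and 1 on each N2 array. Over all 154 worm probes the shares were 33.8%, 58.4% and 23.4% in the mutant and 17.5%, 20.1% and 19.5% in N2. In whole worms, fewer cells of a type and less RNA per cell cannot be told apart.

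Against the control limit, the family was measured best through miR-55-3p and miR-56-3p, which exceeded it on 6 of 6 arrays. miR-52-5p did so on 4 arrays, miR-51-5p on 2, miR-53-5p on 1 and miR-54-3p on 0. In the mutant, 3 of 6 members exceeded the limit in static flight, where 33.8% of the 154 worm probes did. The count was 5 of 6 in centrifuge flight, against 58.4% of worm probes, and 2 of 6 on the ground, against 23.4%. In N2 the same 3 members, miR-52-5p, miR-55-3p and miR-56-3p, exceeded it on each array, against 17.5%, 20.1% and 19.5% of worm probes. A second measure, stricter in N2, set the foreground against the 95th percentile of the empty spots. On the N2 static and ground arrays, where that percentile was 1551 and 565, 0 of 4 spots of any of the 3 exceeded it. On the N2 centrifuge array, with a percentile of 297, 3 spots of miR-55-3p, 1 of miR-56-3p and 0 of miR-52-5p did. In the mutant the percentile was 83.2 in static flight, 100.5 in centrifuge flight and 182.5 on the ground. All 4 spots of every member exceeded it in both mutant flights. On the mutant ground array 1, 1, 2, 2, 4 and 3 of 4 spots did, from miR-51-5p to miR-56-3p in order.

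Among the chromosome IV members, miR-51-5p had an intensity of 115.5 in static flight, 324.5 in centrifuge flight and 89.5 on the ground in the mutant. In N2 it read -50.5, -1 and -7.5 on the same exposures. Every mutant value lay above every N2 value, although the mutant ground value was under the control limit. Before scaling, the 4 mutant centrifuge spots, from 237 to 338, lay above all static spots (68 to 138) and all ground spots (80 to 130). miR-52-5p read 93.5, 188.5 and 80.5 in the mutant and 84.5, 76.5 and 54 in N2, so that the strains overlapped. The mutant centrifuge array was its brightest before scaling, with spots from 162 to 200. In N2, 1 static spot of miR-52-5p stood at -536 and 1 ground spot at -202, while the other spots ran from 81 to 95 and from 48 to 68. Before background subtraction all 4 static spots were between 139 and 229, so the negative spot came from its local background. miR-53-5p, encoded next to miR-51-5p, read 79.5, 91.5 and 88.5 in the mutant, of which only the centrifuge value passed the control limit, and 6, 3 and -12.5 in N2.

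Among the X-linked members, miR-55-3p was measured most firmly, at 354.5, 1033 and 575 in the mutant and 205, 355.5 and 176 in N2. It was the only member with 4 of 4 spots above the control limit on every mutant array. Before scaling, centrifuge flight gave its highest value in both strains. With the main scaling described below, the mutant centrifuge value was instead the lowest in the mutant (340, against 528 in static flight and 533 on the ground). Its N2 static spots were widely scattered, at -171, 56, 354 and 872. miR-56-3p read 97.5, 286.5 and 292.5 in the mutant and 82, 111.5 and 52.5 in N2. The mutant static value was only just above its control limit of 97. The mutant ground value was the median of spots at 81, 133, 452 and 1873, whereas the centrifuge spots ran only from 265 to 319. miR-54-3p read 52, 66 and 65 in the mutant and -1.5, 7.5 and -6.5 in N2, under the control limit throughout. Its mutant ground spots ran from -166 to 273. The other hairpin strand, miR-56-5p, read 77.5, 52 and 57 in the mutant and -111, 7 and -12.5 in N2, and was under the control limit on all 6 arrays while miR-56-3p was above it.

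**Figure D1:**
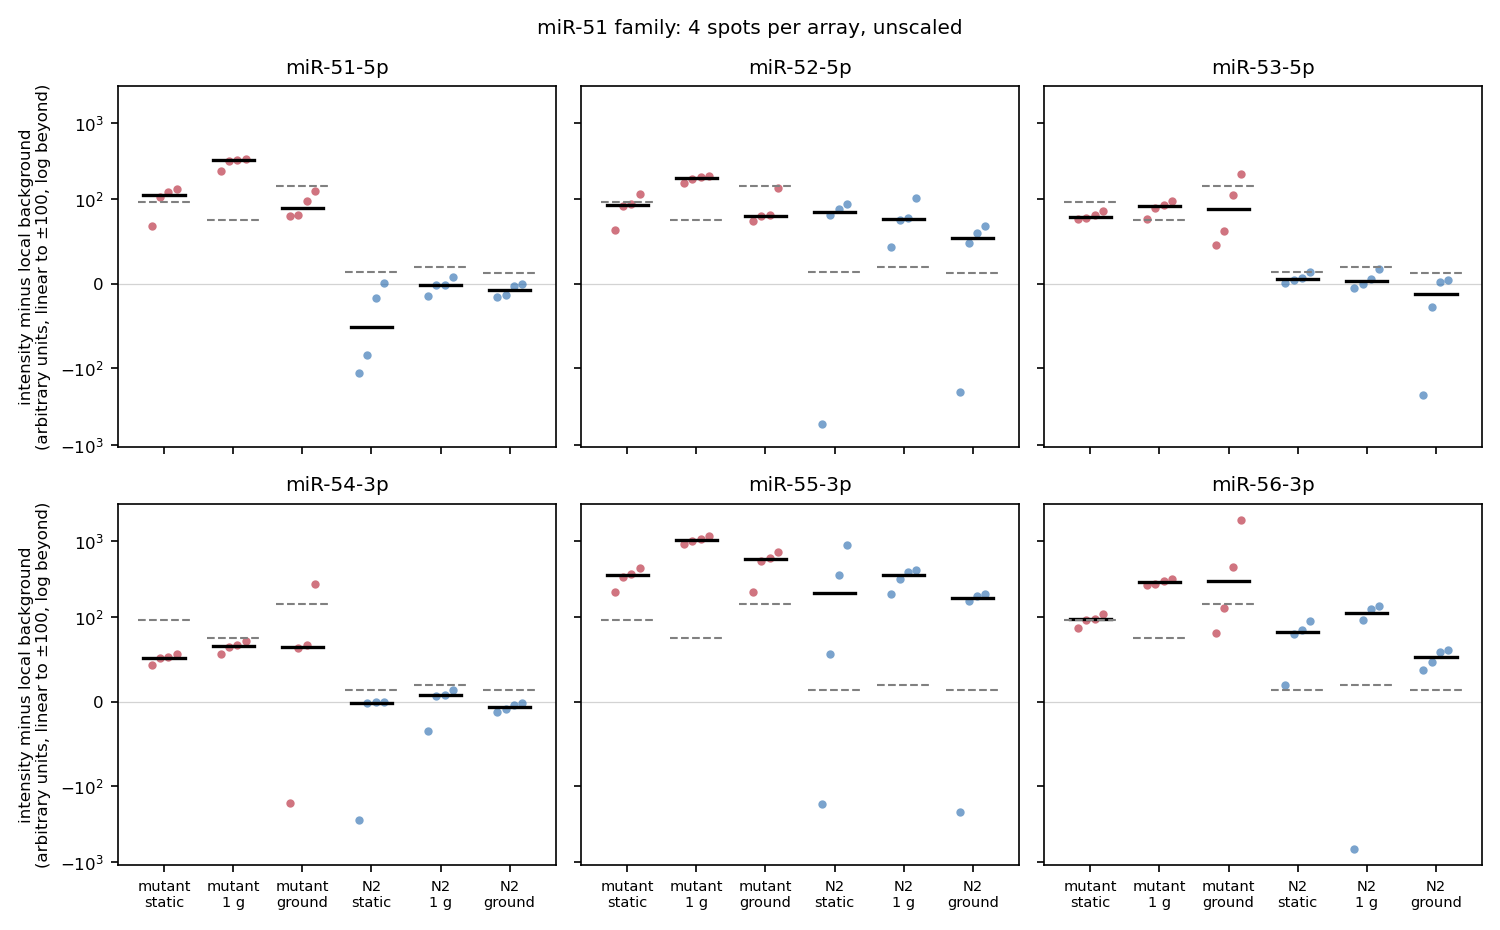
Intensity after subtraction of the local background (y axis, arbitrary units, linear near 0 and logarithmic farther out) of the 4 spots of each member on each of the 6 arrays (x axis). Points are spots, black bars their medians and dashed bars the control limit of that array; miR-55-3p and miR-56-3p have medians above the limit on all 6 arrays, and the spots of miR-56-3p on the mutant ground array range from 81 to 1873.

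Comparing exposures required the arrays to be put on one scale. The main scaling set the median of the 8 worm probes that read 50 or more on all 6 arrays to the same level, with a floor of 50. Of those 8 probes, 3 were members of the family (miR-52-5p, miR-55-3p and miR-56-3p), so that the family partly set its own scale. The scale factors for static flight, centrifuge flight and ground were 1.49, 0.329 and 0.927 in the mutant and 2.537, 2.754 and 2.194 in N2. Without the family they were 1.668, 0.351 and 0.711, and 2.7, 2.976 and 2.291. The authors' own normalization has the same property. On 6 of 6 arrays their factor equalled, within 0.01, the median of the 13 worm probes at 30 or more on all arrays, and 3 of these 13 were the same members. That factor was 286.5 on the mutant centrifuge array, which is the value of miR-56-3p itself, and 84.5 on the N2 static array, which is the value of miR-52-5p. Unscaled values are therefore given beside the scaled ones.

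The first question was how static flight compared with the ground run. In the mutant, scaled miR-51-5p was higher in static flight, at 172 against 83 (log2 difference 1.05, technical SE 0.28, which covers only the scatter of the spots), and miR-52-5p read 139 against 74.6 (0.90, technical SE 0.28). Both ground values and the static value of miR-52-5p were under the control limit. miR-56-3p differed in the opposite direction, at 145 against 271 (-0.90, technical SE 1.01), and miR-55-3p read 528 against 533 (-0.01, technical SE 0.45). miR-53-5p gave 0.53 and miR-54-3p 0.36, with both under the control limit on both arrays. The spots of the 2 arrays overlapped for each of the 6 members, with and without scaling. One member of 6, miR-51-5p, was at least 2-fold higher and 0 were at least 2-fold lower. Over the 145 worm probes compared, 24.1% passed 2-fold upward and 6.9% downward. The family median was 0.45, against 0.52 over all worm probes compared. Without scaling, the differences were 0.37 for miR-51-5p, 0.22 for miR-52-5p, -0.70 for miR-55-3p and -1.58 for miR-56-3p. The 15 settings computed reused the same arrays. Across them, miR-51-5p and miR-52-5p were above 0 in 15 and miR-56-3p was below 0 in 15, while the size depended on the scale. Unscaled, 1 of 6 members (miR-56-3p) was at least 2-fold lower and 0 were higher, where 14.8% of worm probes were lower and 5.93% higher.

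In N2 only miR-52-5p, miR-55-3p and miR-56-3p rose above the floor. Static flight against ground gave 214 against 118.5 for miR-52-5p (0.86, technical SE 0.65), 520 against 386 for miR-55-3p (0.43, technical SE 1.45) and 208 against 115 for miR-56-3p (0.85, technical SE 0.56). The spots of the 2 arrays overlapped for each of the 3. None was at least 2-fold different, where 18.8% of 32 worm probes were higher and 25% lower (0% and 30% unscaled). Averaging the 4 spots in place of taking their median gave -1.12 for miR-56-3p and 0 for miR-52-5p, and taking the foreground above that of empty spots gave -0.39 for miR-52-5p.

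The second question was how flight on the 1 g centrifuge compared with ground. In the mutant, miR-52-5p, miR-53-5p, miR-54-3p and miR-55-3p changed sign between the scaled and the unscaled values. Of these, miR-53-5p and miR-54-3p were close to 0 unscaled (0.05 and 0.02). miR-51-5p was above 0 on both scales, and miR-56-3p was below 0 on both but only -0.03 unscaled. Scaled miR-56-3p read 94.3 against 271 (-1.52, technical SE 1.01), miR-55-3p 340 against 533 (-0.65, technical SE 0.40), miR-52-5p 62.1 against 74.6 (-0.27, technical SE 0.22) and miR-51-5p 107 against 83 (0.37, technical SE 0.20). Unscaled, miR-51-5p stood at 1.86, miR-52-5p at 1.23, miR-55-3p at 0.85 and miR-56-3p at -0.03. The spots of miR-52-5p were all higher in flight before scaling and all lower after it. One member, miR-56-3p, was at least 2-fold lower after scaling and 0 were higher, against 20.3% lower and 9.76% higher of 123 worm probes. miR-53-5p (-0.71) and miR-54-3p (-0.27) were at the floor on the centrifuge array, so that their differences depend on the floor. Unscaled, 2 of 6 members (miR-51-5p and miR-52-5p) were at least 2-fold higher and 0 lower, where 30.4% of worm probes were higher and 3.7% lower.

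In N2 the same comparison gave higher values in centrifuge flight on both scales. miR-55-3p read 979 against 386 (1.34, technical SE 0.79, and 1.01 unscaled). Its 4 flight spots lay above its 4 ground spots with and without scaling. Unscaled, the lowest flight spot was 203 and the highest ground spot 201, and the lowest ground spot stood at -222. Before background subtraction the spots overlapped, at 262 to 465 in flight and 240 to 373 on the ground. miR-56-3p read 307 against 115 (1.41, technical SE 0.71; 1.09 unscaled), and miR-52-5p 211 against 118.5 (0.83, technical SE 0.44; 0.50 unscaled). Of the 3 members compared, 2 were at least 2-fold higher, where 38.9% of 36 worm probes were higher and 11.1% lower. Unscaled, both of these again passed 2-fold, against 12.5% of 24 worm probes higher and 20.8% lower. That 12.5% was 3 probes, and these 2 members were among them. The median over the 3 was 1.34, against 0.65 over all worm probes compared, and all 3 were among the 8 scaling probes. miR-55-3p was above 0 in 15 of 15 settings, with a range from 0.34 to 1.61. miR-56-3p was above 0 in 14, the exception being the spot mean (-2.68), in which 1 flight spot stood at -662.

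The third question set static flight against the 1 g centrifuge, both in orbit. In the mutant all 6 members were higher in static flight after scaling, by 0.62 (miR-56-3p, technical SE 0.09) to 1.24 (miR-53-5p), and miR-52-5p read 139 against 62.1 (1.17, technical SE 0.19). Without scaling all 6 were lower in static flight, by up to -1.56 (miR-56-3p), with miR-51-5p at -1.49, miR-52-5p at -1.01 and miR-55-3p at -1.54. miR-53-5p and miR-54-3p were at the floor on the centrifuge array and under the control limit in static flight, so their differences depend on the floor; for miR-53-5p it was 1.98 with a floor of 20 and 0.24 with a floor of 100. After scaling, 2 of 6 members (miR-52-5p and miR-53-5p) were at least 2-fold higher, against 34.5% of 145 worm probes higher and 0.69% lower. The family median of 0.66 stood beside 0.77 over all worm probes compared, again on a scale that members helped to set. Unscaled, 4 of 6 members were at least 2-fold lower, against 38.3% of worm probes lower and 0.752% higher. The direction of this comparison in the mutant is thus set by the scaling. In N2, miR-55-3p read 520 in static flight against 979 (-0.91, technical SE 1.26), miR-56-3p 208 against 307 (-0.56, technical SE 0.87) and miR-52-5p 214 against 211 (0.02, technical SE 0.60). None reached a 2-fold difference, where 2.94% of 34 worm probes were higher and 20.6% lower (9.52% in each direction unscaled).

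**Figure D2:**
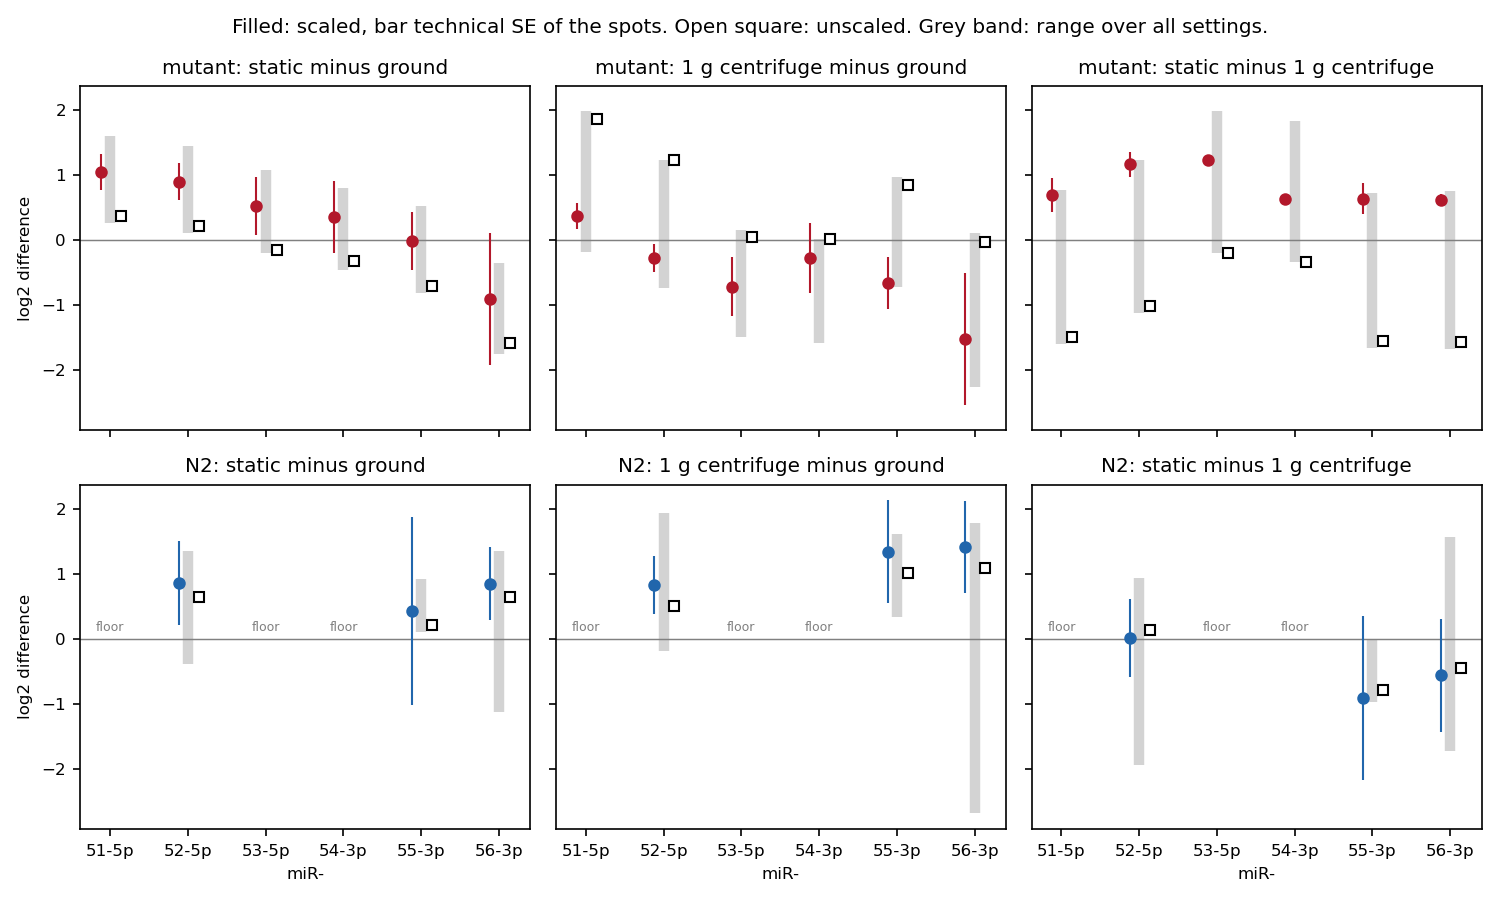
Log2 difference between 2 arrays of one strain (y axis) for each member (x axis), in the mutant (upper row) and N2 (lower row). Filled points are scaled values with the technical SE of the spots, open squares are unscaled values, grey bands span all settings and "floor" marks members at the floor on both arrays; in the mutant, the static against centrifuge differences are above 0 when scaled and below 0 when unscaled for all 6 members.

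With the strains as replicates of an exposure, limma, fitted with additive terms for exposure and strain and adjusted by Benjamini-Hochberg over 126 worm probes, passed 0 of 6 members in any exposure comparison. It passed 0% of all worm probes tested in each of the 3 comparisons, and unadjusted p-values under 0.05 numbered 3 for static against ground, 1 for centrifuge against ground and 0 for static against centrifuge. The estimate for miR-52-5p in static flight minus ground was 0.88 (SE 0.49, limma adjusted p = 0.896), and it was higher in both strains. For miR-55-3p in centrifuge flight minus ground it was 0.35 (SE 0.61, limma adjusted p = 1.0). The comparisons with the ground share the ground arrays, and those with the centrifuge share the centrifuge arrays.

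Ratios between members of the same array do not depend on the scaling, and only their change from array to array can be read, since probes differ in brightness. These ratios were chosen after the values had been seen and have no test. In the mutant, the mean log2 intensity of miR-51-5p and miR-52-5p minus that of miR-55-3p and miR-56-3p was -0.84 in static flight, -1.14 in centrifuge flight and -2.27 on the ground. Relative to ground, miR-51-5p and miR-52-5p were thus higher against miR-55-3p and miR-56-3p in both flights, by 1.43 and 1.14. For the third chromosome IV member, miR-53-5p over miR-55-3p was -2.16 in static flight, -3.50 in centrifuge flight and -2.70 on the ground. Relative to ground that is 0.54 in static and -0.80 in centrifuge flight (0.17 with the control level subtracted), with miR-53-5p above the control limit only in centrifuge flight. The difference for miR-51-5p and miR-52-5p was 1.71 and 1.38 when spots were averaged, 2.86 and 2.80 with the control level subtracted, and 1.82 and 1.44 with the foreground above empty spots. On the ground array, miR-51-5p and miR-52-5p were under the control limit and miR-56-3p had its widest spots, and their part in this difference was not tested. With miR-55-3p alone as the reference, miR-52-5p was higher by 0.91 and 0.38 in static and centrifuge flight, and by 0.57 and -0.02 when spots were averaged.

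In N2 the background-subtracted intensity of miR-51-5p was below 0, so its ratio could not be formed. With the foreground above empty spots, the ratio with miR-51-5p was -2.35 in static and -3.43 in centrifuge flight, and none could be formed on the ground. The ratio of miR-52-5p to miR-55-3p and miR-56-3p was -0.62 in static flight, -1.38 in centrifuge flight and -0.83 on the ground. Relative to ground it stood at 0.21 in static and -0.55 in centrifuge flight, against 1.36 and 0.82 in the mutant. With the foreground above empty spots the N2 values were -0.59 and -1.03. Within the X cluster, miR-56-3p over miR-55-3p was -1.86 and -1.85 in the mutant flights and -0.98 on the ground, and -1.32, -1.67 and -1.75 in N2. The mutant ground value became 0.30 with the mean of the spots, which the spot at 1873 carried.

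**Figure D3:**
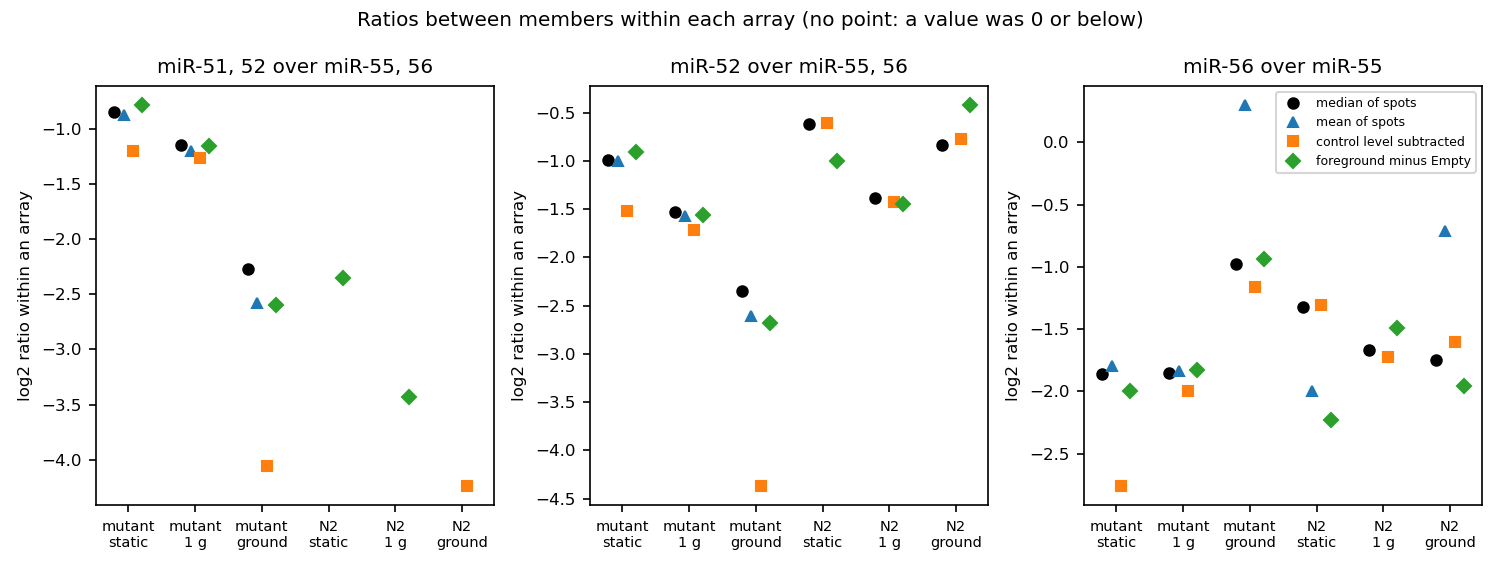
Log2 ratio between members within each array (y axis) for the 6 arrays (x axis), under 4 ways of taking the intensity. The ratio of miR-51-5p and miR-52-5p to miR-55-3p and miR-56-3p is lower on the mutant ground array (-2.27 with the median of the spots) than on the mutant flight arrays (-0.84 and -1.14); points are missing where a value was 0 or below.

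Between strains, the 3 exposures served as replicates. The estimate for mutant minus N2 was 1.20 for miR-51-5p (SE 0.38, limma adjusted p = 0.0899, higher in the mutant on 3 of 3 exposures), where N2 was at the floor on all 3 arrays and the estimate therefore depends on the floor (2.53 with a floor of 20, 0.29 with a floor of 100). For miR-52-5p it was -1.02 (SE 0.40, limma adjusted p = 0.172, lower in the mutant on all 3). The estimates were 0.65 for miR-53-5p, 0.30 for miR-54-3p, -0.35 for miR-55-3p and -0.33 for miR-56-3p, with limma adjusted p of 0.331, 0.563, 0.615 and 0.674. None of the 6 members passed, where 19% of 126 worm probes were called higher in the mutant and 0.794% were called lower. The family's median estimate was -0.01, against 0.56 over all worm probes tested. This median cannot show whether the family differed between strains. miR-52-5p, miR-55-3p and miR-56-3p helped to set the scale, and the N2 values of miR-51-5p, miR-53-5p and miR-54-3p were replaced by the floor. Without scaling, the estimates for miR-52-5p, miR-55-3p and miR-56-3p turned to 0.67, 1.35 and 1.36, so their direction between strains depends on the scale. Unscaled estimates for miR-51-5p, miR-53-5p and miR-54-3p were 1.58, 0.79 and 0.28.

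Within single exposures, scaled miR-55-3p was 0.02 in static flight, -1.53 in centrifuge flight and 0.46 on the ground (mutant minus N2), and miR-56-3p was -0.52, -1.70 and 1.23. The members at least 2-fold higher in the mutant were miR-51-5p and miR-53-5p in static flight, miR-51-5p in centrifuge flight and miR-56-3p on the ground. In centrifuge flight 3 members, miR-52-5p, miR-55-3p and miR-56-3p, were at least 2-fold lower. The shares over worm probes were 50.3% higher and 1.38% lower in static flight, 49.3% and 28.4% in centrifuge flight, and 35.5% and 5.65% on the ground. Unscaled, the members at least 2-fold higher in the mutant were 1 of 6 in static flight (36.9% of worm probes), 4 of 6 in centrifuge flight (61.4%) and 2 of 6 on the ground (39.8%). None was at least 2-fold lower unscaled, against 0%, 0.877% and 2.34% of worm probes.

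Other microRNA families are set beside the 19% of worm probes called higher in the mutant and the median estimate of 0.56 over all worm probes tested. Of the let-7 family, known for setting the timing of larval stages, 2 of 7 members (miR-48-5p and miR-84-5p) passed as higher in the mutant, with a family median estimate of 1.55. Of the miR-58/bantam family, an abundant group that acts in growth, 4 of 4 tested members passed as higher, with a median of 4.07, and of the miR-35 family of embryos 1 of 6 (miR-38-3p), with a median of 1.37. Among 5 microRNAs with well-known single roles, lin-4-5p and miR-1-3p passed as higher, with a median over the 5 of 0.30. No member of any of these lists passed in an exposure comparison. The difference between families was not tested.

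The profiles of the members across the 6 arrays resembled each other to different degrees. The root-mean-square difference to the family's mean profile, in log2 units over the 6 arrays, was smallest for miR-54-3p (0.22) and largest for miR-51-5p (0.65). Of 96 other worm probes, the 5 with profiles most like the family mean were miR-1828 (0.16), miR-42-3p (0.22), miR-249-3p (0.22), miR-254 (0.23) and miR-268 (0.25). All 5 were dim, with intensities between 50 and 92.5 on the mutant arrays, and in static flight and on the ground they lay under the control limit. miR-54-3p, too, was under that limit on all 6 arrays and at the floor on the mutant centrifuge and all N2 arrays, so these likenesses rest in large part on values at the floor.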

How the data were processed

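Per the file headers, the authors deposited the intensity of every spot before and after subtracting its local background, and a table with a value per probe, which equalled the median of the spots for 2314 of 2314 probes on each array. Columns of the series value table match other samples' columns of that table, so samples were named as in the raw tables. The 12 other value columns were not used.

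The median of the 4 spots was scaled as described, floored at 50 and put on the log2 scale. limma 3.58.1 (R 4.3.3) was run on 126 of 154 worm probes, those at 50 or more on at least 2 arrays. Per the design text repeats were technical, and each strain and exposure entered the fit as 1 array. The spread behind the limma p-values is thus how far exposure differences disagreed between the strains, moderated by limma over all worm probes tested. For miR-51-5p, miR-53-5p and miR-54-3p, all 3 N2 arrays were at the floor, so this disagreement came from the mutant differences alone. Those p-values concern only these arrays. Comparisons inside a strain set single arrays against each other and have no test. Worm probes compared for the 2-fold counts were those above the floor after scaling on at least 1 of the 2 arrays; this rule replaced an earlier one (50 or more before scaling) after both counts had been seen. All 6 members were described, and the members and lists were chosen with earlier results of these data known. The most alike probes were the 5 nearest in profile, among those at 50 or more on at least 3 arrays. Alternatives covered spots, background, scaling, floor, filter and single arrays. Sequences were not used here.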

Additional observations from a re-analysis of the deposited data

Results flagged for a closer look

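For 3 members the scaled values of the mutant and N2 lay on opposite sides of 0 under the same exposure contrast. With 1 array per strain and exposure, these differences between strains were not tested. They are part of the spread against which limma set its estimates. The difference of differences (mutant minus N2, log2) was -1.10 for miR-52-5p in centrifuge flight against ground (-0.27 in the mutant and 0.83 in N2). For miR-55-3p it was -0.44 in static flight against ground, where the mutant value of -0.01 is well within its technical SE of 0.45, -1.99 in centrifuge flight against ground and 1.55 in static against centrifuge flight. For miR-56-3p it was -1.75, -2.93 and 1.18 in the same order. The mutant values behind -1.75 and -2.93 were -0.90 and -1.52, each with a technical SE of 1.01. The N2 values behind them, 0.85 and 1.41, were -1.12 and -2.68 with the mean of the spots. Without scaling, the strains still lay on opposite sides of 0 for miR-55-3p in static flight against ground (-0.70 and 0.22). They also did for miR-56-3p against ground in static (-1.58 and 0.64) and centrifuge flight (-0.03 and 1.09). In the other 4 contrasts they did not. With scaling probes outside the family, both strains were above 0 for miR-52-5p in centrifuge flight against ground (0.21 and 0.88). The same held for miR-55-3p in static flight against ground (0.53 and 0.46). The remaining contrasts stayed on opposite sides of 0 on that scale.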

How the results depend on the processing

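Of the alternatives computed, none brought a family member past the threshold in an exposure comparison, and the cause of each shift below was not tested. The number of worm probes past the threshold went from 0 to 1 (detected on all 6 arrays) and 2 (scaling within each strain) for static against ground, and to 1 with normexp for static against centrifuge flight. For mutant minus N2 the 25 probes became 13 with no filter, 2 with detection on all 6 arrays, 94 with normexp, 12 with the control-probe level subtracted, 3 with 75th percentile scaling, 66 with scaling within each strain, 49 with a floor of 20, 4 with a floor of 100, 0 with Hy3 spot scaling, and 0 to 10 when single arrays were left out (0 without mutant or N2 static). The members past it became 4 with normexp and 3 with scaling within each strain. It was 1 each with quantile normalization, no scaling, a floor of 20, and the authors' scaling rule without the family. The 4 with normexp (miR-51-5p, miR-52-5p, miR-53-5p and miR-54-3p) were lower in the mutant. The 3 with scaling within strains (miR-51-5p, miR-55-3p and miR-56-3p) were higher, but that setting puts the strains on no common scale. miR-52-5p was lower with quantile normalization, and the other single members were higher.

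Mutant minus N2 estimates turned as follows. With normexp, miR-51-5p, miR-53-5p and miR-54-3p were -1.08, -1.66 and -1.92, and miR-53-5p was -0.32 with quantile normalization. miR-52-5p was 0.12 with the mean of the spots, and 0.67 both unscaled and scaled within strains. miR-55-3p was 1.35 unscaled, 1.36 scaled within strains, 0.30 with the authors' intensity and 0.16 by their rule without the family. miR-56-3p was 0.52 with the mean of the spots, 1.36 unscaled, 1.35 within strains, 0.32 with the authors' intensity, 0.18 by their rule without the family and 0.03 with the foreground above empty spots. Leaving out single arrays, miR-55-3p ran from -0.75 to 0.24 and miR-56-3p from -1.11 to 0.36, highest without either centrifuge array. For static minus centrifuge, miR-52-5p was -0.36 with the mean of the spots, -0.06 with the 75th percentile, -0.43 unscaled, -0.19 within strains and -0.44 with Hy3 scaling. For centrifuge minus ground, miR-55-3p ran from -0.54 (without N2 centrifuge) to 1.23 (without mutant centrifuge), and was -0.26 without N2 ground.

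The mutant family median for static minus ground (0.45) was 0.94 with scaling probes outside the family, -0.24 unscaled, -0.10 within strains, -0.07 with Hy3 scaling and -0.27 by the authors' rule without the family. For centrifuge minus ground (-0.46) it was -1.07 with normexp, 0.57 with the 75th percentile, 0.45 unscaled, 0.45 with Hy3 scaling, -0.02 within strains, 0.17 with the authors' intensity, -1.05 with a floor of 20, and 0 with a floor of 100, quantile normalization or the control level subtracted. For static minus centrifuge (0.66) it was 0.99 with normexp, 0.13 with the control level subtracted, -1.30 with the 75th percentile, -0.09 with quantile normalization, -1.25 unscaled, -0.65 within strains, 0.05 with the authors' intensity, 0.93 and 0.51 with floors of 20 and 100, -1.36 with Hy3 scaling and -0.03 by the authors' rule without the family. In N2, static minus ground (0.85) was 0 with the mean of the spots, 0.08 with normexp and 0.06 with the foreground above empty spots. Centrifuge minus ground (1.34) was 0.08 with normexp, 0.34 with the 75th percentile and 0.42 with no filter, and static minus centrifuge (-0.56) was 0.36 with the 75th percentile.

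Single differences of at least 2-fold turned too. For mutant static minus centrifuge, miR-52-5p was -1.06 with the 75th percentile, -0.26 with quantile normalization, -1.01 unscaled, -0.41 within strains and -1.12 with Hy3 scaling, and miR-53-5p was -0.16, -0.20 and -0.19 with the 75th percentile, unscaled and with Hy3 scaling. For centrifuge minus ground, miR-56-3p was 0.11 with the 75th percentile in the mutant and -2.68 with the mean of the spots in N2. Between strains in static flight, miR-51-5p was -0.66 and miR-53-5p -1.08 with normexp, and miR-53-5p -0.96 with quantile normalization. In centrifuge flight, miR-51-5p was -1.32 with normexp, and miR-52-5p, miR-55-3p and miR-56-3p were 1.30, 1.54 and 1.36 unscaled and 0.81, 1.05 and 0.87 within strains, with miR-56-3p at 0.96 with the mean of the spots. The N2 ratio of miR-53-5p to miR-55-3p in static minus centrifuge flight, 1.79, was -1.64 with the foreground above empty spots. On the ground, miR-56-3p was -0.28 with normexp, -0.42 with the 75th percentile and -0.79 with quantile normalization.

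Counting worm probes at 50 or more before scaling, the rule used first, changed no count of members. It changed the share at least 2-fold higher in N2 static against ground from 18.8% to 10% and the share lower from 25% to 40%. The share lower in N2 centrifuge against ground went from 11.1% to 16.7%, and that higher in N2 static against centrifuge from 2.94% to 4.76%. Between strains in centrifuge flight the shares higher and lower went from 49.3% and 28.4% to 28.2% and 16.2%. In proportion the other shares moved less, among them the share higher between strains in static flight, which went from 50.3% to 59.3%. No paired analysis was possible because every replicate number is 1; strain and exposure were already terms of the model. The foreground, Hy3 and authors' rule alternatives were chosen after seeing the data. Low signal limits the N2 values.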
